A study of Homo sapiens with 6 samples.

Results

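The kinases that phosphorylate SR proteins were examined in the human ovarian cancer line OVCAR8 after inhibition of the splicing factor SF3B1 by pladienolide B. The genes were taken by name and comprised CLK1, CLK2, CLK3 and CLK4, the CDC2-like kinases, SRPK1 and SRPK2, the SR protein kinases, and PRPF4B, a kinase of the spliceosome. All 7 were found among the 38637 genes of the expression table, and all 7 passed the filter on low values that left 16178 genes for testing. Poly(A) RNA was sequenced from wild type OVCAR8 cells given DMSO, the solvent control, or pladienolide B at 2 nM over 72 h (3 samples each). The labels do not say whether the 3 samples of a group came from separate cultures, so the p-values measure only the spread between these samples, which may be technical. A single line, dose and time were used, and the values are totals over the culture, in which fewer cells of a kind and less RNA per cell cannot be told apart.

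SR proteins bind exons and recruit the splicing machinery, and the many serines in their arginine-serine-rich domains must be phosphorylated before they can work. SRPK1 and SRPK2 act mainly in the cytoplasm, where they prime SR proteins for import by transportin 3 (TNPO3), while the CLKs act in the nucleus and release SR proteins from nuclear speckles. PRPF4B phosphorylates proteins of the U4/U6.U5 tri-snRNP, which joins the spliceosome after the U2 snRNP, the particle that contains SF3B1 and is the target of pladienolide B. The CLK genes are themselves known for regulated splicing: transcripts that retain introns are held in the nucleus, and skipping of exon 4 shifts the reading frame so that the kinase domain is lost.

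Exon 4 of each CLK gene is printed here because it is the exon through which these kinases are known to be switched at the level of splicing, and because the values per gene reported below add up all forms and cannot separate them. The sequences were read from hg38 at the canonical transcripts of GENCODE v44. Capitals mark the exon, and lower case letters mark the last 40 bases of the intron before it and the first 15 bases of the intron after it.
CLK1 exon 4: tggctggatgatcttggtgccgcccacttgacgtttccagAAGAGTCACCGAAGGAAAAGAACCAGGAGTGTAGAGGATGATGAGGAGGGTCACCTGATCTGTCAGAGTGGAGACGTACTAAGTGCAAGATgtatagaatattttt
CLK4 exon 4: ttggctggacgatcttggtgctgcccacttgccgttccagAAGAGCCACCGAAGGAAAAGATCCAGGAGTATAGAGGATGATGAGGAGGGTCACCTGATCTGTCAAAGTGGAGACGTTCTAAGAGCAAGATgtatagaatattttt
CLK2 exon 4: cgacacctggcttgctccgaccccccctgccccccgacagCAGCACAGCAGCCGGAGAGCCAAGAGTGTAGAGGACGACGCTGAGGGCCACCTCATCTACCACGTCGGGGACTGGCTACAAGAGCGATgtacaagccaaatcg
CLK3 exon 4: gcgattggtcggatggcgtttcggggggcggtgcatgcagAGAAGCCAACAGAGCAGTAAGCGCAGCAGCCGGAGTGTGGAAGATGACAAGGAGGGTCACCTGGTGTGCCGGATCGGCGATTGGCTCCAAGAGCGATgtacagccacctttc

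The exon of CLK1 has 91 bases and lies on the minus strand (exon with flanks, chr2:200860110-200860255), and that of CLK4, also of 91 bases, lies on the minus strand at chr5:178617329-178617474. The exon of CLK2 has 88 bases on the minus strand (chr1:155268693-155268835), and that of CLK3 has 97 bases on the plus strand (chr15:74622080-74622231). None of these lengths is a multiple of 3, and each leaves a remainder of 1, so skipping shifts the frame in all 4 genes. The exons of CLK1 and CLK4 were the same at 85 of 91 positions (93.4%), and the first 15 bases of the intron after them were identical. Of the 20 bases before the final AG of the preceding intron, 70.0% were pyrimidines in CLK1, 75% in CLK2, 75% in CLK4 and 45.0% in CLK3. Annotated transcripts that skip the exon number 1 in CLK1, 1 in CLK2, 2 in CLK4 and 5 in CLK3.
Annotated retained introns separated the genes further. Of the GENCODE transcripts, 8 of 14 (57.1%) are of the retained intron class in CLK1 and 7 of 13 (53.8%) in CLK4, against 8 of 27 (29.6%) in CLK3 and 0 of 7 in CLK2. The class holds 4 of 13 transcripts (30.8%) of SRPK1, 2 of 15 (13.3%) of SRPK2 and 1 of 9 (11.1%) of PRPF4B. All introns of the 7 canonical transcripts begin with GT and end with AG. These are properties of the annotation, not measurements in OVCAR8 cells.

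Each value is given in adjusted reads, the reads of a gene after the authors' adjustment for library size. The samples held 22621338 to 26130882 recovered reads on genes. DMSO replicate 2 stood apart from the other DMSO samples, with a chi-square per degree of freedom of 7.25 to 7.34 against them. This value was 2.01 between DMSO replicates 1 and 3, and 3.17 to 4.82 between the pladienolide B samples. Counting error alone gives about 1. Of 10 ovarian carcinoma markers all passed the filter, led by KRT8, but WT1, KRT19, MUC16 and CDH1 had fewer than 50 adjusted reads in each sample. Of 11 markers of blood, vessel and stromal cells, 5 passed the filter, CD3E had 0 reads in all samples and PTPRC, the pan-leukocyte marker, 0 to 2, and the summed level of the 11 was 337 to 381 adjusted reads in DMSO, against 326 to 364 in pladienolide B.

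After pladienolide B, PRPF4B, CLK1 and CLK3 fell, CLK2 and SRPK2 rose, and CLK4 and SRPK1 did not pass the test. The log2 fold changes lay between -0.45 and 0.25. With limma on log2(value + 1) and Benjamini-Hochberg adjustment over the 16178 genes, 5 of the 7 kinases (71.4%) had an adjusted p below 0.05, where 7695 genes, 47.6% of those tested, did so. Of these kinases 2 were higher, against 22.4% of all tested genes, and 3 were lower, against 25.2%. The groups did not overlap for any of the 7 kinases, which was the case for 55.3% of the tested genes. The median log2 fold change was -0.14 for the kinases and -0.004 for all tested genes. Without DMSO replicate 1 or 2, 5 of 7 passed. Without DMSO replicate 3, or without any 1 of the pladienolide B replicates, 4 passed, 1 higher and 3 lower, since SRPK2 was lost.

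**Figure D1:**
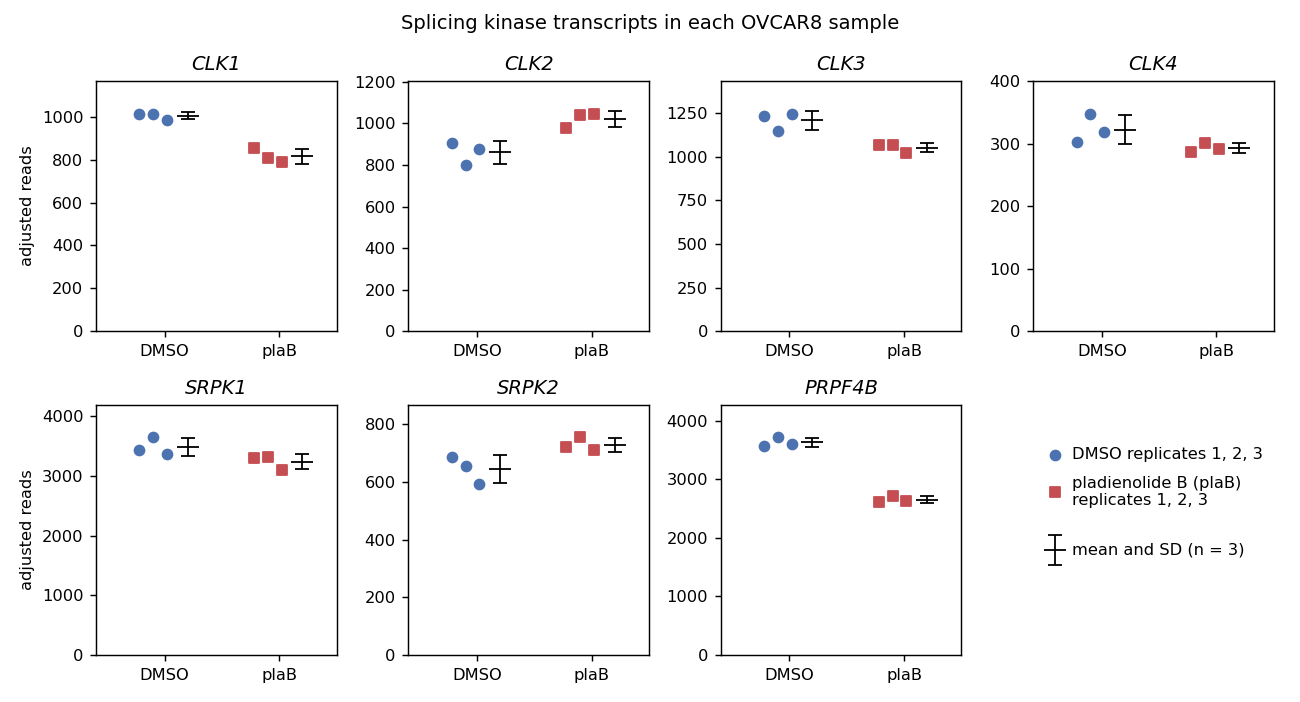
Adjusted reads of the 7 kinases in each of the 6 samples, with linear axes from 0, circles for DMSO, squares for pladienolide B (plaB) and bars for the mean and SD of 3 samples. The groups are apart in every panel, with the widest gap in PRPF4B, where DMSO samples lie at 3574 to 3718 and pladienolide B samples at 2613 to 2724.

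PRPF4B, on chromosome 6 of hg38 (plus strand, 4021300 to 4064983), showed the largest change of the family. It had 3574, 3718 and 3611 adjusted reads in DMSO replicates 1 to 3 and 2613, 2724 and 2627 in pladienolide B replicates 1 to 3. The DMSO samples were all above the pladienolide B samples by more than the range within either group. The mean went from 3634 ± 74.3 to 2654 ± 60.5 (SD, n = 3 per group), or 73.0% of the DMSO level. This was a log2 fold change of -0.45 (standard error 0.04, 95% interval -0.54 to -0.36, limma adjusted p = 2.2e-07). Of all tested genes, 77.9% had a smaller change in either direction, and that share was 61.5% for CLK1, 53.1% for CLK2 and 44.5% for CLK3, so the changes of this family were not among the largest in these cells.

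CLK1, on chromosome 2 (minus strand, 200853009 to 200864658), is the member best known for autoregulation of its own splicing. It had 1015, 1015 and 986 adjusted reads in DMSO and 854, 806 and 788 in pladienolide B. The 3 DMSO samples lay close together and above every treated sample. The mean of 1005 ± 16.9 became 816 ± 34.4 (SD, n = 3 per group), or 81.2%, a log2 fold change of -0.30 (standard error 0.06, 95% interval -0.42 to -0.18, limma adjusted p = 0.00041).
CLK4 is the closest relative of CLK1 and lies on chromosome 5 (minus strand, 178602664 to 178627050). It had 302, 348 and 318 adjusted reads in DMSO and 287, 301 and 291 in pladienolide B. The groups were separated only by the gap between 301 and 302, and DMSO replicate 2 was the highest. The mean was 322 ± 23.3 in DMSO and 293 ± 7.33 in pladienolide B (SD, n = 3 per group), and the log2 fold change of -0.14 did not pass the test (standard error 0.09, 95% interval -0.33 to 0.05, limma adjusted p = 0.23). The interval includes the change of CLK1, so the values do not show that the pair acted differently. CLK4 had the fewest reads of the family, 275 to 345 per sample.

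CLK2 and CLK3 moved in opposite directions. CLK2, on chromosome 1 (minus strand, 155262868 to 155273504), is the CLK with no retained-intron transcript in the annotation. It had 907, 798 and 878 adjusted reads in DMSO and 976, 1042 and 1047 in pladienolide B. All treated samples were higher, and DMSO replicate 2 was the lowest of the 6. The mean went from 861 ± 56.2 to 1022 ± 39.7 (SD, n = 3 per group), or 119%, a log2 fold change of 0.25 (standard error 0.06, 95% interval 0.11 to 0.38, limma adjusted p = 0.0037). Without DMSO replicate 2 the log2 fold change was 0.19 (limma adjusted p = 0.0096).
CLK3, on chromosome 15 (plus strand, 74608372 to 74630201), had 1231, 1145 and 1247 adjusted reads in DMSO and 1065, 1066 and 1020 in pladienolide B. All treated samples were lower, and DMSO replicate 2 was the DMSO sample nearest to them. The mean of 1208 ± 54.7 fell to 1051 ± 26.3 (SD, n = 3 per group), or 87.0%, a log2 fold change of -0.20 (standard error 0.06, 95% interval -0.32 to -0.08, limma adjusted p = 0.0069). The value was -0.24 without DMSO replicate 2. The row LOC102723750 overlaps CLK3 on the opposite strand and had means of 20.5 adjusted reads in DMSO and 29.4 in pladienolide B, and FAM217A, which overlaps PRPF4B on the opposite strand, had at most 0.955.

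SRPK1 and SRPK2, the cytoplasmic kinases, also had estimates of opposite sign, but of these only SRPK2 passed the test, and narrowly. SRPK1, on chromosome 6 (minus strand, 35832966 to 35921098), had 3428, 3644 and 3371 adjusted reads in DMSO and 3302, 3315 and 3094 in pladienolide B. The lowest DMSO sample and the highest treated sample lay closer together than the lowest and highest samples within either group. The means were 3481 ± 144 and 3237 ± 124 (SD, n = 3 per group), with a log2 fold change of -0.10 (standard error 0.05, 95% interval -0.20 to -0.01 before adjustment, limma adjusted p = 0.073). SRPK1 rests on 3087 to 3642 reads per sample, and both ends of its interval lie within 0.20 of no change on the log2 scale.
SRPK2, on chromosome 7 (minus strand, 105110708 to 105399363), had 687, 656 and 593 adjusted reads in DMSO and 720, 754 and 711 in pladienolide B. The treated samples were all higher, and DMSO replicate 3 was the lowest. The mean went from 645 ± 47.8 to 728 ± 23.0 (SD, n = 3 per group), or 113%, a log2 fold change of 0.18 (standard error 0.07, 95% interval 0.03 to 0.32, limma adjusted p = 0.045). The call was lost without DMSO replicate 3, where the log2 fold change was 0.12 (limma adjusted p = 0.22), and without any 1 of the pladienolide B replicates (adjusted p = 0.084, 0.15 and 0.066 without replicates 1, 2 and 3). KMT2E, which overlaps SRPK2 by 4312 bases on the opposite strand, had a log2 fold change of -0.30 (limma adjusted p = 0.0021), opposite in sign to SRPK2, and whether reads were counted by strand is not stated in the sources used here.

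**Figure D2:**
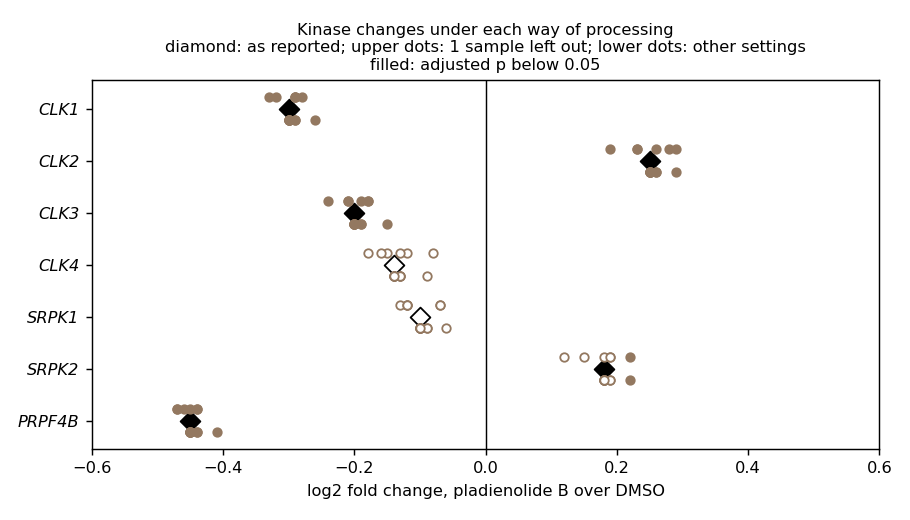
Log2 fold change of each kinase as reported (diamond) and under 15 alternatives (dots), with the 6 fits that leave out a sample above the line and the other settings below it, filled where the adjusted p is below 0.05. No kinase changes sign, the CLK4 and SRPK1 symbols are open throughout, and SRPK2 has both open and filled dots, between 0.12 and 0.22.

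CLK2 took a larger share of the CLK transcripts after pladienolide B, and CLK1 and CLK3 a smaller one. The 4 CLK genes together had 3454, 3306 and 3428 adjusted reads in DMSO and 3182, 3215 and 3146 in pladienolide B, with a mean of 93.7% of the DMSO level. CLK2 made up 26.3%, 24.1% and 25.6% of this sum in DMSO and 30.7%, 32.4% and 33.3% in pladienolide B. For this gene, and for CLK1 and CLK3, the shares of the groups were apart. CLK1 went from 29.4%, 30.7% and 28.8% to 26.9%, 25.1% and 25.0%, and CLK3 from a mean of 35.5% to 33.0%. CLK4 took 8.7% to 10.5% in DMSO, against 9.0% to 9.4% in pladienolide B, where the groups overlap. These are shares of adjusted reads not corrected for transcript length, and a share of a fixed total falls in some members when it rises in another. The sum of SRPK1 and SRPK2 had means of 4127 ± 168 and 3965 ± 142 (SD, n = 3 per group), and the groups overlapped, with 4070 in pladienolide B replicate 2 and 3964 in DMSO replicate 3. The sum over all 7 kinases was 11157 ± 160 in DMSO and 9801 ± 216 in pladienolide B, of which the fall in PRPF4B was the largest part.

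**Figure D3:**
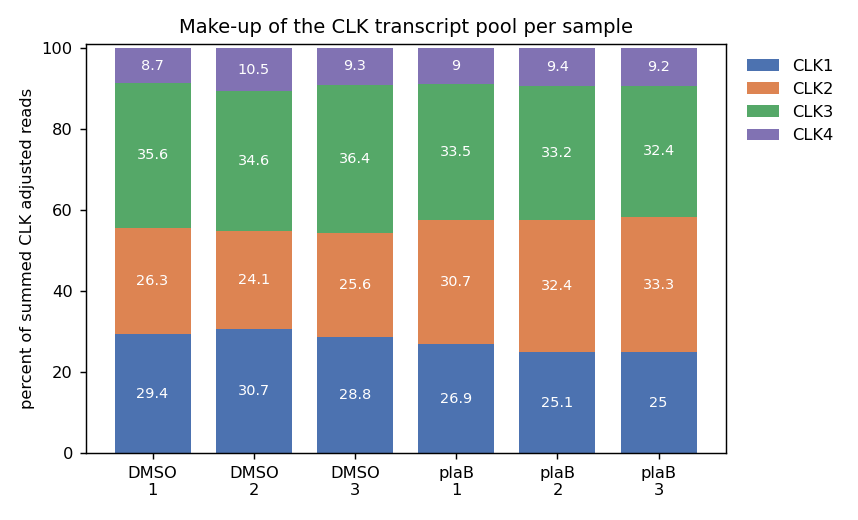
Stacked bars give each CLK gene's percent of the summed CLK adjusted reads in each of the 6 samples (plaB, pladienolide B). CLK2 widens from 24.1% to 26.3% in DMSO to 30.7% to 33.3% in pladienolide B, while CLK1 narrows.

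Ratios between close relatives within a sample do not depend on library size. The log2 ratio of CLK2 to CLK3 was -0.44, -0.52 and -0.51 in DMSO and -0.13, -0.03 and 0.04 in pladienolide B. CLK3 had more reads than CLK2 in every DMSO sample, and after treatment the pair were nearly equal, a difference of 0.45 with no overlap (exact two-sided permutation p = 0.1, 0.15 after Benjamini-Hochberg adjustment over the 3 ratios). With 3 against 3 samples 0.1 is the smallest p the test can give, so it cannot reach 0.05. The ratio of SRPK1 to SRPK2 was 2.43 ± 0.10 in DMSO and 2.15 ± 0.04 in pladienolide B (SD, n = 3 per group), a difference of -0.28, also without overlap (exact permutation p = 0.1, adjusted 0.15). The ratio of CLK1 to CLK4 was 1.64 ± 0.10 and 1.48 ± 0.08 (SD, n = 3 per group), and its groups overlapped (difference -0.16, exact permutation p = 0.2, adjusted 0.2).

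Levels can be compared between genes only per length. Per kilobase of the canonical transcript, the order in DMSO was SRPK1 with 801 ± 33.1 adjusted reads, CLK3 with 651 ± 29.5, CLK1 with 544 ± 9.16, PRPF4B with 483 ± 9.88, CLK2 with 400 ± 26.1, SRPK2 with 175 ± 13.0 and CLK4 with 129 ± 9.31 (SD, n = 3 for each). No neighbours in this order overlapped in their 3 samples. In pladienolide B CLK2 had 474 ± 18.5 and CLK1 442 ± 18.6 adjusted reads per kilobase (SD, n = 3 for each), and these neighbours overlapped, with 453 in the lowest CLK2 sample and 463 in the highest CLK1 sample. The level of PRPF4B per kilobase was then 353 ± 8.04, below both, and SRPK1 remained the highest at 744 ± 28.6 and CLK4 the lowest at 117 ± 2.93 (SD, n = 3 for each). The order depends on the length used. Over all annotated exons, CLK3, whose annotated exons come to 19697 bases, had 61.3 ± 2.78 adjusted reads per kilobase in DMSO (SD, n = 3), lower than all but CLK4. Both lengths are from GENCODE v44, and the gene models used to count the reads are not given in the sources used here. A length may therefore include bases that were not counted, which would lower the level per kilobase.
The share of sequence also found in transcripts of other annotated genes differed between the kinases. No window of 50 bases of the canonical CLK1 or CLK4 transcript occurs in a GENCODE transcript of another gene, on either strand, so reads of this close pair can be told apart at that length. For CLK2, 6.13% of windows occur in CLK2P1, a pseudogene that had 1 read in the 6 samples together. For SRPK1, 42.7% of windows of 50 bases and 42.1% of windows of 100 bases occur in a transcript annotated to LHFPL5. The search did not leave out transcripts of the same locus, so these windows need not be a second copy in the genome. No other row of the expression table overlapped SRPK1 in position. How reads in these windows were assigned is not stated.

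The substrates were examined next. SR proteins went both ways: of 14 tested, 5 rose and 3 fell (57.1% called, against 47.6% of all tested genes), with a median log2 fold change of 0.05. With a sample left out, between 6 (4 higher, without pladienolide B replicate 1) and 11 (8 higher, without DMSO replicate 2) passed. SRSF4 had 2436, 2576 and 2399 adjusted reads in DMSO and 3414, 3222 and 3414 in pladienolide B, giving a log2 fold change of 0.44 (limma adjusted p = 7.4e-07). SRSF1, the founding member of the family, went from 4564, 5462 and 4618 to 6627, 6406 and 6184, a log2 fold change of 0.40 (limma adjusted p = 2.6e-05), and SRSF5 had one of 0.34. In contrast, SRSF2, which marks nuclear speckles, fell from 6968, 8370 and 7135 to 5902, 5882 and 5785, a log2 fold change of -0.35 (limma adjusted p = 6.2e-05). In all 4 the groups were apart. The SR genes, like the CLKs, carry regulated exons and introns, and totals per gene do not separate the productive from the other forms.

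Among the genes of SR protein import, which follows priming by the SRPKs, and of dephosphorylation, 3 of 9 rose and 3 fell. Of the 9, 66.7% were called, against 47.6% of all tested genes (22.4% higher and 25.2% lower). Their median log2 fold change was 0.05. With each sample centred on its median the split was 4 and 1. Without DMSO replicate 3, or without pladienolide B replicate 2, 2 rose and 1 fell, and without DMSO replicate 1, or without pladienolide B replicate 1, 3 rose and 1 fell. TNPO3, the import receptor, had 3449, 3526 and 3554 adjusted reads in DMSO and 3698, 3557 and 3667 in pladienolide B, and its log2 fold change of 0.05 did not pass the test (limma adjusted p = 0.31). PPP1CA, a catalytic subunit of protein phosphatase 1, fell from 5267, 5665 and 5275 to 4269, 4124 and 4270, a log2 fold change of -0.36 (limma adjusted p = 3.7e-06). PPP1CB fell by 0.12 on the log2 scale (limma adjusted p = 0.023), a call that was lost under 7 of 15 alternatives. PPP1R8, a nuclear regulatory subunit of the same phosphatase, rose by 0.34 (limma adjusted p = 3.7e-05), and PPP2CB, a catalytic subunit of protein phosphatase 2A, by 0.21 (limma adjusted p = 0.0022).

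Other kinases of the same CMGC group that act on splicing or transcription, with their cyclins, had 3 higher and 3 lower of 15 tested (40% called, below the 47.6% of all tested genes), with a median log2 fold change of -0.05. The split was 5 and 1 with each sample centred on its median, and 3 and 1 without pladienolide B replicate 1. CCNL2, a cyclin L that partners CDK11, rose from 2334, 2241 and 2474 adjusted reads to 2885, 3016 and 2867, a log2 fold change of 0.32 (limma adjusted p = 4.2e-05). DYRK3, a kinase that dissolves nuclear speckles and stress granules, rose by 0.28 (limma adjusted p = 0.0044), and HIPK2 rose by 0.26 (limma adjusted p = 0.00035). CDK11B fell by 0.36 on the log2 scale (limma adjusted p = 0.00011), while its near-identical copy CDK11A had a log2 fold change of -0.01, so the division of reads within this pair is uncertain. SRPK3, the muscle member of the SRPK family, was listed but did not pass the filter, with 2, 3 and 1 reads in DMSO and 9, 11 and 6 in pladienolide B. The treated samples were all higher, but these counts are too few to give its level. A single read in a DMSO sample carries wide counting error. Only the fit without a filter tested SRPK3, among 16 genes of the list, of which 4 rose and 2 fell.

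Partners and substrates outside the SR family had 10 higher and 3 lower of 19 tested (68.4% called), where 47.6% of all tested genes were called, 22.4% higher and 25.2% lower. Their median log2 fold change was 0.15. The number higher depended on the samples, with 6 without DMSO replicate 3 or without pladienolide B replicate 3 and 12 without DMSO replicate 2, and 3 were lower in each of these fits. The tri-snRNP proteins are the partners and substrates of PRPF4B. PRPF4, a U4/U6 snRNP protein, had 2208, 2373 and 2324 adjusted reads in DMSO and 3417, 3327 and 3354 in pladienolide B, giving a log2 fold change of 0.55 (limma adjusted p = 4e-08). PRPF31, a tri-snRNP protein that PRPF4B phosphorylates, fell from 1858, 1884 and 1914 to 1338, 1367 and 1500, a log2 fold change of -0.43 (limma adjusted p = 4.7e-06). PRPF6, another substrate of PRPF4B, had a log2 fold change of -0.06 (limma adjusted p = 0.25).
LBR, the lamin B receptor, whose arginine-serine region is phosphorylated by SRPK1, fell from 4263, 4528 and 4285 to 3182, 3157 and 3253, a log2 fold change of -0.45 (limma adjusted p = 2.5e-07). AKT2, a kinase of the pathway that acts on SRPK1, fell by 0.41 on the log2 scale (limma adjusted p = 1.5e-05), and AKT1 had a log2 fold change of -0.06 (limma adjusted p = 0.25). HSPA8, a chaperone that binds SRPKs, had 24440, 43117 and 25620 adjusted reads in DMSO and 39428, 38091 and 38032 in pladienolide B. It passed the test (log2 fold change 0.36, limma adjusted p = 0.035), but DMSO replicate 2 was above all treated samples. PRPF6, AKT1, TNPO3, CDK11A, SRPK3 and HSPA8 were chosen after their values were seen.

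**Figure D4:**
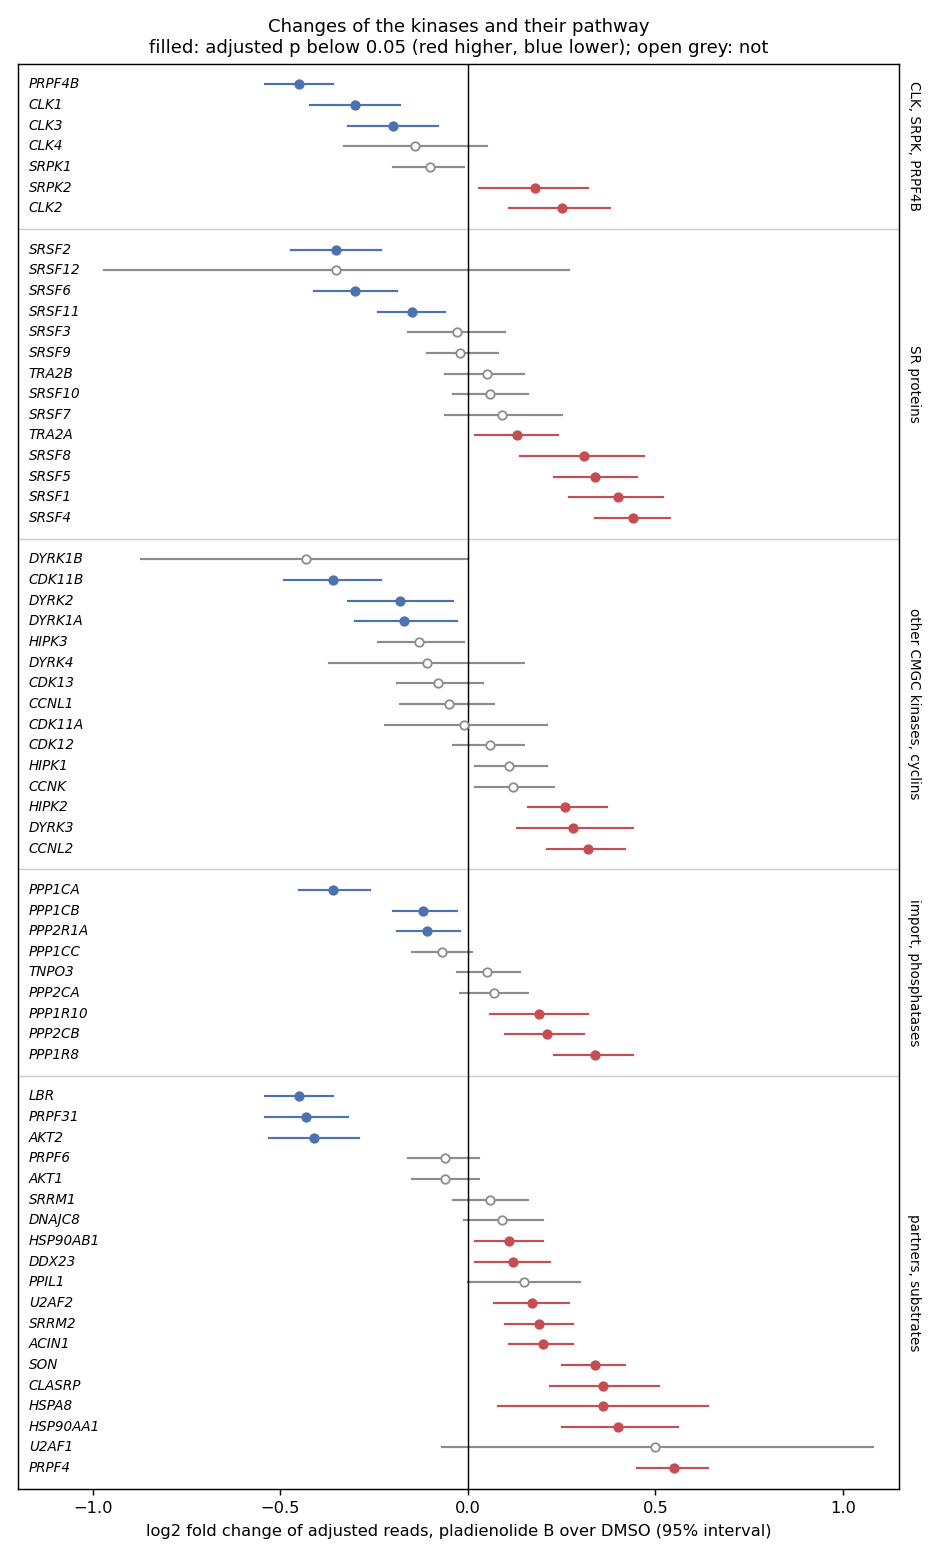
Change from DMSO to pladienolide B on the log2 scale with its 95% interval for the 7 kinases and the tested genes of 4 lists (SR proteins, other CMGC kinases and cyclins, import and phosphatases, partners and substrates), filled where the adjusted p is below 0.05. Each list has filled symbols on both sides of 0, with PRPF4 at 0.55 and PRPF4B at -0.45.

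Genes with the pattern most like each kinase over the 6 samples were found by Pearson's r of log2(value + 1) among 13204 tested genes with a mean of at least 50 adjusted reads. They were CIB1 (r = 0.9997) and NOP53 (0.9994) for PRPF4B, RASGEF1C (0.9995) and GTSE1 (0.999) for CLK1, GLI3 (0.9995) and CORO2B (0.9974) for CLK2, and RNF213-AS1 (0.9986) and UBQLN2 (0.9963) for CLK3. For CLK4 they were the readthrough genes DNAJC25-GNG10 (0.9946) and CHURC1-FNTB (0.9894), for SRPK1 KLHL5 (0.9951) and UBE2D3 (0.9929), and for SRPK2 LOC652276 (0.9961) and EMILIN2 (0.9949). Each r is among the 2 highest of 13204 values over only 6 samples, so it is high by selection. The size of a change does not enter r. CIB1 had a log2 fold change of -0.46 beside -0.45 for PRPF4B, but CORO2B had 0.96 beside 0.25 for CLK2. All points share the 6 libraries and the difference between the groups, so r is given as a description of these samples.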

How the data were processed

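RNA sequencing was carried out by the authors on poly(A) RNA of 3 DMSO and 3 pladienolide B samples. Per the study's methods, hisat2 placed the trimmed reads on hg38. The submitters' processing notes list HISAT2, HTSeq 0.12.4, DESeq2 and hg19, but 99.8% of the 35926 gene symbols shared with GRCh38.p14 overlap their position there. Strand use in counting is not given in the sources used here. The authors deposited 1 library-size-adjusted signal value per gene and sample, beside their own log2 fold changes, p-values and q-values, which were not used.
The values have the form of quantile-adjusted counts of edgeR. Inverting the adjustment gave whole reads (tolerance 0.02) for 100% of the 96432 values at or above 10. A library holds 22621338 to 26130882 reads on genes, so a kinase rests on 275 to 3821 reads per sample.
log2(value + 1) was tested with limma 3.58.1 (trend, two-sided, Benjamini-Hochberg) on the genes kept by filterByExpr of edgeR 4.0.16 (minimum count 10, total 15, 3 samples). A pseudocount of 1 understates changes of low genes. A gene was called at an adjusted p below 0.05. edgeR's quasi-likelihood test and DESeq2 1.42.0 on recovered reads were alternatives. The members and gene lists were chosen with earlier results of these data known. All 7 kinases were named, with the 4 largest called changes without overlap from each list, the 2 genes most like each kinase, overlapping genes and pseudogenes. The values showed no pairing by replicate number, with deviations of same-numbered samples correlated at -0.02, -0.02 and 0. This cannot show whether same-numbered samples were handled together, so a replicate block was run as an alternative.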

Additional observations from a re-analysis of the deposited data

How the results depend on the processing

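The results were recomputed under 15 alternatives: other pseudocounts and filters, other tests and scalings, a replicate block, and each sample left out in turn. Of the 105 values for the 7 kinases, 97 kept their direction and their side of the threshold, and the other 8, all for SRPK2, kept their direction and lost the call. The number of kinases called was 4 or 5, and none reversed. SRPK2 had an adjusted p by limma of 0.061 without a filter, 0.092 without the variance trend and 0.051 with the replicate block, and of 0.06 by DESeq2, but of 0.04 with edgeR's quasi-likelihood test. With the replicate block 7349 genes and 4 kinases were called, and no call of the other kinases changed. The number of SR proteins called was 8 and became 5 with limma without the variance trend. The number of import and dephosphorylation genes called was 6, became 2 in that fit, and lay between 3 and 7 with a sample left out. The number of partners and substrates called was 13, and became 9 (6 higher) without the variance trend and 9 to 15 with a sample left out. The number of other CMGC kinases and cyclins called was 6, and 4 to 8 over the alternatives. The number of genes called was 6381 to 7855. Of 345 values for single genes, 329 were unchanged in call and direction, and 16 lost the call, for SRPK2, PPP1CB (7) and PPP2CB (1). With 275 to 345 reads per sample, CLK4 has the widest interval of the family, and a change of its estimated size could not be told from none at this depth and spread. The cause of the lost calls was not tested.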
